A study of Mus musculus with 8 samples.

Results

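The genes described here are the mitosis and kinetochore genes of sorted thymic ILC2, the group 2 innate lymphoid cells, compared between mice without Il25 and wild-type mice. The set held every row of the count table whose symbol was Cenp followed by a single letter, plus 28 named genes of the mitotic machinery, which gave 48 of 10913 genes, and 46 of the 48 passed a filter on low counts that kept 9016 genes. Both groups were young male mice of matched age whose thymus had been dissociated with enzymes: the Il25 KO group lacks Il25, which encodes the cytokine IL-25, and the WT group carries it. No treatment is named for either group. Each group had 4 libraries made by MARS-seq, in which each polyadenylated RNA is counted once, at its 3′ end, by a molecular barcode (UMI). The sources used here do not give how the Il25 allele was made, the exact age or whether animals were pooled, nor that each library is a separate animal. The p-values therefore measure the spread between these samples, which may be technical.

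As background, a dividing cell assembles a kinetochore on each centromere, where the histone variant CENP-A marks the chromatin, a set of inner CENP proteins binds to it, and the outer NDC80 complex grips spindle microtubules. The kinase CDK1 with cyclins A and B starts mitosis, Aurora and Polo-like kinases build and correct the spindle, and the checkpoint proteins hold back the anaphase-promoting complex (APC/C) until every kinetochore is attached. Transcripts of many of these genes are made mainly in G2 and mitosis, so in bulk RNA their level follows the share of cycling cells. In bulk samples a smaller share of cycling cells and less RNA per cycling cell cannot be told apart.

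The libraries held 1915365 to 3250718 UMIs, and the 48 genes took 0.657% to 0.838% of them. Levels are given on the usual counts-per-million scale (CPM), with library sizes adjusted by TMM (trimmed mean of M values). Because each molecule is counted by its 3′ end, a CPM value does not grow with transcript length. Markers of the labelled cell type and of other cell types are given as levels, and the identity of the sorted cells was not tested. Of 20 ILC2 marker genes 13 were listed, and Il17rb, the IL-25 receptor chain, stood at 169 to 191 CPM over KO and 146 to 161 CPM over WT libraries. Of the 13, 7 passed the filter, Gata3, Id2, Il7r, Il2ra, Areg and Kit beside Il17rb, and the other 6, Icos, Il13, Il4, Pparg, Ptpn13 and Cd200r1, stood at or under 9.17 CPM in every library. The 13 summed to 635 to 657 CPM over KO and 495 to 628 CPM over WT libraries. The ILC2 genes Rora, Il1rl1, Klrg1, Il5 and Arg1 and the targeted gene Il25 were not analysed here. Of 22 thymocyte and T cell markers 19 were listed, with a summed level of 4674 to 5235 CPM over KO and 4377 to 5909 CPM over WT libraries, mostly from Dntt, Lck and Tcf7. WT replicate 1 stood apart in this list, with Cd4 at 78.4 CPM and Cd8b1 at 355 CPM, where the other 7 libraries held at most 6.45 and 65.0 CPM. Of 8 NK cell and ILC1 markers 2 were listed, Gzma at 442 to 677 CPM and Gzmb at 43.7 to 97.5 CPM over the 8 libraries. The share of the mitotic RNA that came from cells other than ILC2 was not tested. KO replicate 3 stood apart in the mitosis genes themselves.

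The mitotic transcripts were abundant in both genotypes. Ube2c, the ubiquitin-conjugating enzyme of the APC/C, was the highest of the 48 at 1052 ± 64.6 CPM (KO) and 1044 ± 118 CPM (WT; SD, n = 4). It was followed by Tubb4b, Cenpa, Top2a and Spc24, and these 5 genes held 43.7% of the summed level. Of the 48 genes, 23 stood at 100 CPM or more on average over the 8 libraries and 11 under 25 CPM. At the low end, Cdk1, Cenpw and Cenpf stood at mean levels of 4.84, 4.17 and 4.00 CPM. Cenpq and Cenpu fell below the filter and were not tested, with 17 and 17 UMIs over the 4 KO libraries and 26 and 25 over the 4 WT libraries. Within the NDC80 complex, the subunits pair as Ndc80 with Nuf2 and Spc24 with Spc25. Their mean levels ran from 30.6 CPM for Nuf2 to 431 CPM for Spc24, a gap wider than the spread between libraries. How completely each gene's transcripts are counted was not tested, so CPM values of different genes need not give their relative amounts.

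**Figure D1:**
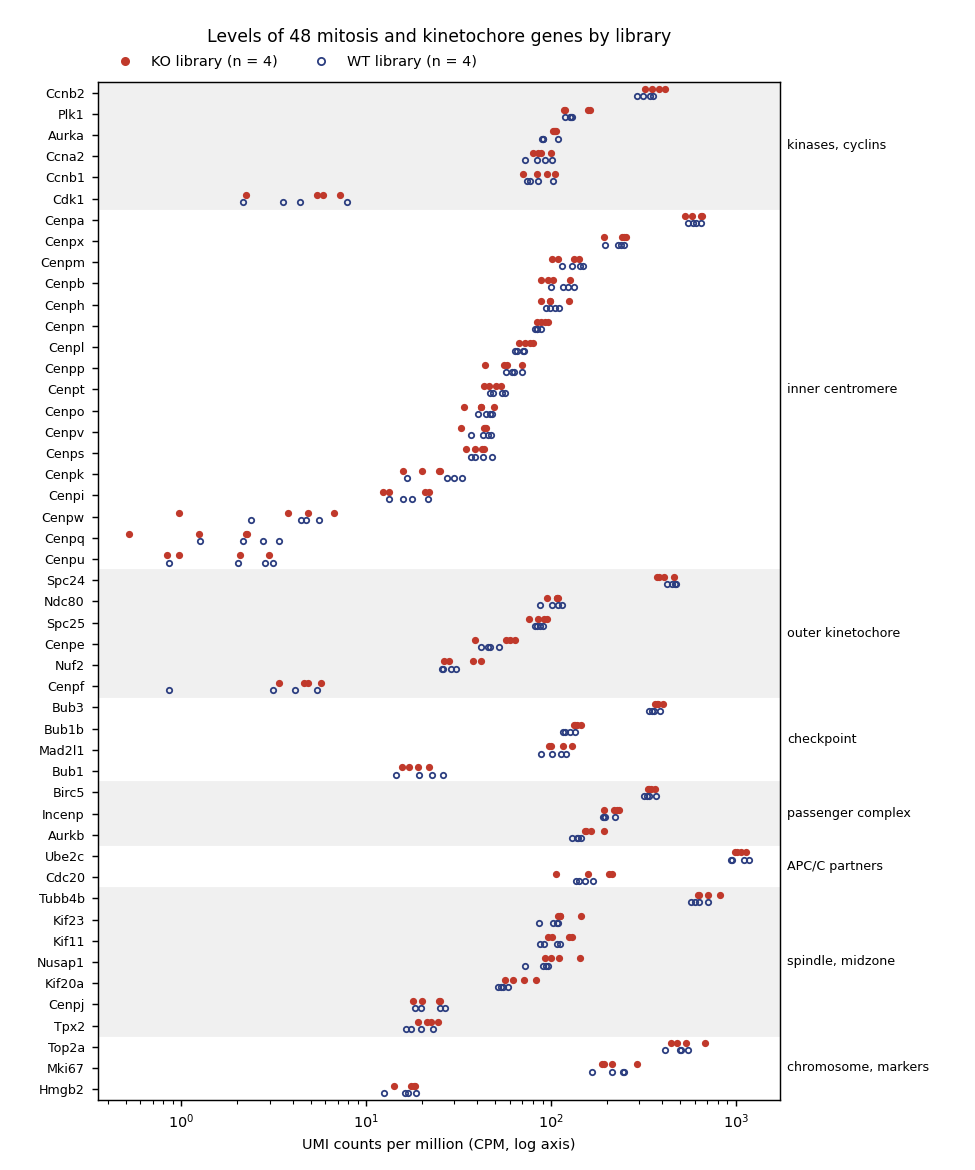
Level of each of the 48 genes in each library, in CPM on a log axis, with filled red points for the 4 KO and open blue points for the 4 WT libraries and shaded bands for the roles. The points of the genotypes overlap for every gene but Aurkb, and levels run from about 1048 CPM for Ube2c to under 5 CPM for Cdk1, Cenpw, Cenpf, Cenpq and Cenpu.

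No mitosis or kinetochore gene passed the test between the genotypes. With edgeR's quasi-likelihood test and Benjamini-Hochberg adjustment over all 9016 genes, an adjusted p under 0.05 was reached by 0 of 46 genes in the higher and 0 in the lower direction in KO, where 0.177% of all genes tested were called higher and 0.0333% lower (0.211% in either direction). DESeq2, run on all 48, called 0, though at least Cdk1 had no adjusted p there, and limma-voom called 0 of the 46. At an unadjusted p under 0.05, edgeR found Aurkb, Nusap1 and Kif20a higher and no member lower, which is 6.52% of the 46 against 5.12% of all genes higher and 5.71% lower (10.8% in either direction), a share near the background. Single libraries moved that count of 3, taken in either direction. It was 0 without KO replicate 3, 1 without WT replicate 2, 5 without KO replicate 2 and 6 without KO replicate 4. Without both KO replicate 3 and WT replicate 1 it was 2. These were Cenpk and Mki67, both lower in KO, with log2 fold changes of -0.37 and -0.24, and none of Aurkb, Nusap1 and Kif20a. In the authors' deposited table, whose log2 fold change was turned here to KO over WT, 0 of the 48 genes had an adjusted p under 0.05, against 0.33% of all genes in it, and the lowest adjusted p was 0.561. For the 23 tested genes at 100 CPM or more, the edgeR 95% intervals of the log2 fold change lay between -0.45 and 0.63. Each interval is that of a single gene and covers the spread between these libraries.

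Fitted values lay mostly above 0 outside the inner centromere and mostly below 0 within it. Of the 46 genes 32 had a log2 fold change above 0, or 69.6%, against 49.5% of all genes tested, and the median was 0.07, against -0.0022 over all genes. Of the 15 tested inner centromere genes 4 lay above 0, with a median of -0.08. Of the 31 genes of all other roles 28 lay above 0, with a median of 0.13, the exceptions being Spc24, Bub1 and Cenpj. This division into inner centromere and other genes was made after the values were seen, genes of the same cells and libraries are not independent, and no test was run on it. Without WT replicate 1 the median of the 46 genes was 0.0061, and with 1 library left out the inner centromere genes above 0 numbered 3 to 7, with 7 when WT replicate 4 was omitted. For scale, the median SE of a single gene's log2 fold change was 0.12.

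**Figure D2:**
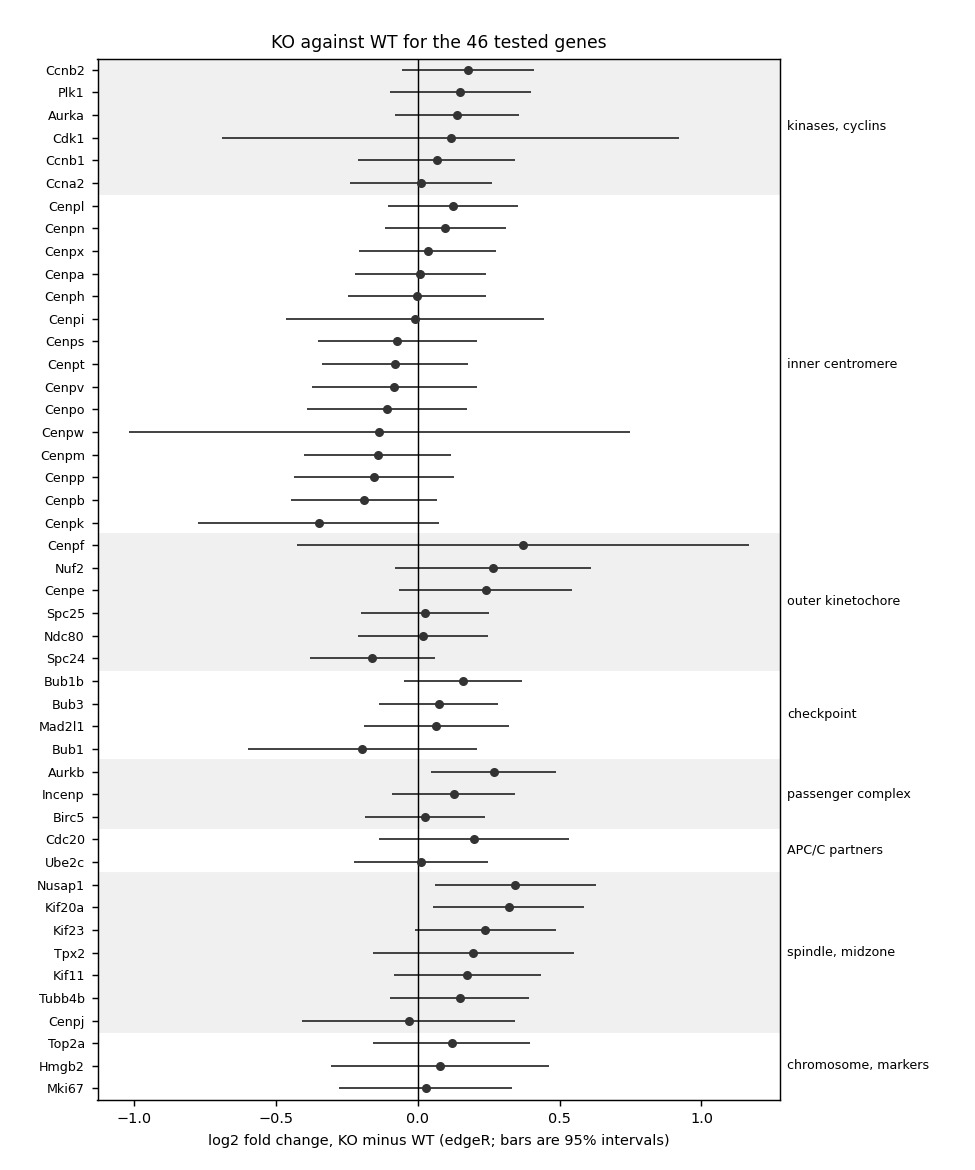
Log2 fold change of KO minus WT for the 46 tested genes, ordered by role and value, with points for the edgeR estimates and bars for their 95% intervals. All intervals cover 0 except those of Aurkb, Nusap1 and Kif20a, and most inner centromere genes sit at or left of 0 while most others sit to its right.

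Promoters are shown because the members are known for a common set of promoter elements. As background, many genes of G2 and mitosis carry a CHR (cell cycle genes homology region), an element read by the MuvB complex through LIN54, together with CCAAT boxes bound by NF-Y. RefSeq windows of GRCm38.p6, from 250 bases before to 50 after each start, were matched by symbol for 42 of the 48 genes; Aurkb, Ccna2, Incenp, Kif20a, Spc24 and Tpx2 had no entry. CHR was searched as TTTGAA or TTCGAA and the CCAAT box as CCAAT, both on either strand. Counting any start of a gene, a CHR match within 100 bases before to 50 after the start was found in 17 of 25 genes of the other roles (68.0%) and in 4 of 17 inner centromere genes (23.5%). The share was 7.11% of 7324 tested genes and 9.87% of all 27025 genes with such a window. CCAAT matches anywhere in the window were found in 76.0% and 64.7% of the same 2 sets and in 43.7% of tested genes. At least 2 CCAAT matches were found in 47.6% of the 42 genes and 17.9% of tested genes. A match of these letters is not a binding site.

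The 120 bases before the start are printed 5′ to 3′ on the gene's strand, with CHR and CCAAT matches on either strand in capitals. The positions are Cdk1 at chr10:69352913-69353032 (- strand), Ccnb2 at chr9:70421555-70421674 (- strand), Cdc20 at chr4:118437344-118437463 (- strand), Kif11 at chr19:37376262-37376381 (+ strand), Top2a at chr11:99024190-99024309 (- strand), Ube2c at chr2:164769809-164769928 (+ strand), Nusap1 at chr2:119618178-119618297 (+ strand) and Cenpb at chr2:131180068-131180187 (- strand). The first 6 were chosen as genes of mitotic entry, the spindle, chromosomes and mitotic exit that hold such matches; Nusap1, the gene with the largest log2 fold change among those at 100 CPM or more, and the inner centromere gene Cenpb were chosen as genes whose windows hold none.
Cdk1: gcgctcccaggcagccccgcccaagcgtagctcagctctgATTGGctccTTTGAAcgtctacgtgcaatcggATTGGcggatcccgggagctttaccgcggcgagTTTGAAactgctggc
Ccnb2: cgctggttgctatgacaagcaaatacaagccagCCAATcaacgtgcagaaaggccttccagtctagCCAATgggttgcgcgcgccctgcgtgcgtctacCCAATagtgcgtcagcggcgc
Cdc20: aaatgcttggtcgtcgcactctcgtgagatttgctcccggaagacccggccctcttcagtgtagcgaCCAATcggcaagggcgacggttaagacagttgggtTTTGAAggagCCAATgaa
Kif11: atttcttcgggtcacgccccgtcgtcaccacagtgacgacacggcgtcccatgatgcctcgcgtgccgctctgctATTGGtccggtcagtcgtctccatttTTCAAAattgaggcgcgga
Top2a: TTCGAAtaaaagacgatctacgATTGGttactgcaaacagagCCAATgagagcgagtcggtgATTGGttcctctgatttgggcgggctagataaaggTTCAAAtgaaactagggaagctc
Ube2c: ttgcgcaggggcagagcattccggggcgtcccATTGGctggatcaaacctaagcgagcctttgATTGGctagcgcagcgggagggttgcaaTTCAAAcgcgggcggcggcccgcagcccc
Nusap1: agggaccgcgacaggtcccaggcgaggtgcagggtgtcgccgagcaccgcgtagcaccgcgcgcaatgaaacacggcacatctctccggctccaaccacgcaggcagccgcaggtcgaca
Cenpb: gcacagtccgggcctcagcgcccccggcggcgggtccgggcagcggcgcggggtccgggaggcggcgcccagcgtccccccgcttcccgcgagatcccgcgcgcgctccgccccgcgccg
In Ccnb2 the 3 CCAAT matches lie 33 bases apart, at -87, -54 and -21, and its CHR matches, at -167 and at 5 after the start, fall outside the printed bases. In Cdk1 the CHR matches begin at -71 and -15, and in Cdc20 and Kif11 at -18 and -19.

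**Figure D3:**
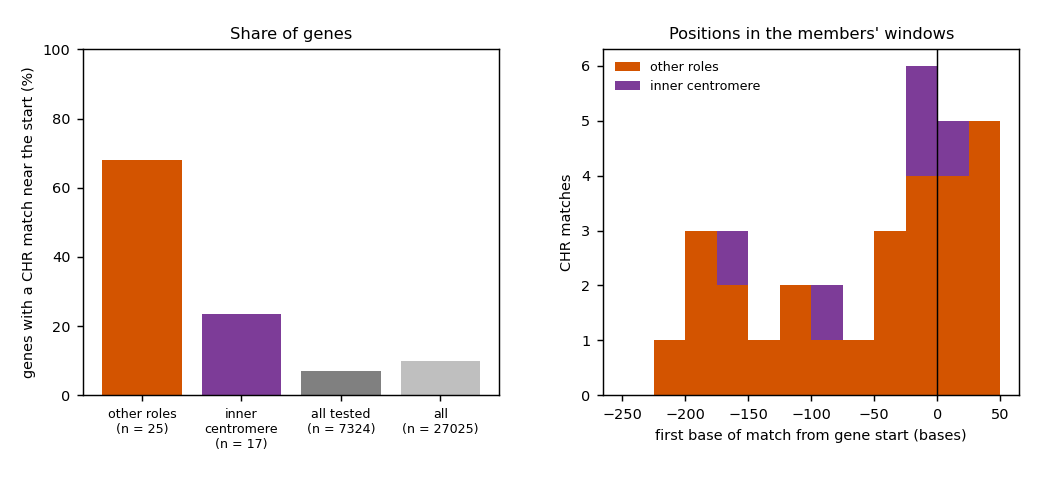
Left, the percentage of genes with a CHR match from 100 bases before to 50 after the start, for 25 genes of the other roles, 17 inner centromere genes, 7324 tested genes and all 27025 genes with a promoter window (bars from 0). Right, the position of each CHR match in the members' windows, in bases from the gene start, stacked by role; the bars are highest around the start.

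Among the kinases and cyclins that drive entry into mitosis, all 6 fitted values lay above 0 and none passed. Ccnb2, a B-type cyclin, stood at 354, 386, 411 and 323 CPM in KO replicates 1 to 4 and at 291, 314, 342 and 356 CPM in WT replicates 1 to 4. The groups overlapped, with KO replicates 2 and 3 above all WT libraries and KO replicates 1 and 4 among them, and the log2 fold change was 0.18 ± 0.11 SE (adjusted p = 0.585 by edgeR). Aurka, the Aurora kinase of spindle poles, stood at 105, 106, 104 and 103 CPM in KO replicates 1 to 4 and at 90.0, 90.1, 89.0 and 109 CPM in WT replicates 1 to 4. Its KO libraries lay within 103 to 106 CPM, above 3 of the 4 WT libraries and below WT replicate 4, and its log2 fold change was 0.14 ± 0.10 SE (adjusted p = 0.662 by edgeR). Ccnb1, the other B-type cyclin, stood at 83.5, 70.4, 105 and 94.6 CPM in KO replicates 1 to 4 and at 74.5, 102, 77.1 and 85.1 CPM in WT replicates 1 to 4. The libraries of the genotypes were mixed in order, and the log2 fold change was 0.07 ± 0.13 SE (adjusted p = 0.899 by edgeR). Cdk1, the kinase that the cyclins activate, was counted at only 2.24 to 7.25 CPM in the KO libraries and 2.14 to 7.91 CPM in the WT ones, with 51 and 52 UMIs in all, and its interval for the log2 fold change ran from -0.69 to 0.92. At that depth a difference as large as the others seen here was not detectable. Plk1, the Polo-like kinase, and Ccna2, cyclin A, had log2 fold changes of 0.15 ± 0.12 and 0.01 ± 0.12 (SE). Single libraries moved several of these values. That of Ccnb2 was 0.12 without KO replicate 3 and 0.071 without both KO replicate 3 and WT replicate 1, and that of Aurka was 0.22 without WT replicate 4. With 1 library left out, Ccnb1 ranged from -0.029 (without KO replicate 3) to 0.17 (without WT replicate 2) and Cdk1 from -0.089 (without WT replicate 1) to 0.56 (without WT replicate 4).

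Among the inner centromere genes, 0 of 15 passed, 11 fitted values lay below 0 and 4 above. Cenpa, the histone H3 variant that marks the centromere, stood at 652, 656, 529 and 576 CPM in KO replicates 1 to 4 and at 551, 609.7, 584 and 652 CPM in WT replicates 1 to 4. The genotypes covered the same range, KO replicate 3 was the lowest of the 8, and the log2 fold change was 0.009 ± 0.11 SE (adjusted p = 0.990 by edgeR), with an interval of -0.22 to 0.24. Cenpb, which binds a short motif in satellite DNA, stood at 102, 88.5, 96.4 and 126 CPM in KO replicates 1 to 4 and at 123, 133, 99.8 and 116 CPM in WT replicates 1 to 4. Of its KO libraries 3 lay below 3 of the WT libraries and KO replicate 4 lay among the WT values, with a log2 fold change of -0.19 ± 0.12 SE (adjusted p = 0.595 by edgeR). GENCODE M21 places the gene Spef1 on the same strand over the last 1000 bases of Cenpb, so its 3′ counts are uncertain. Cenpk, a subunit of the CENP-H/I/K/M module, had the most negative value. It stood at 20.1, 24.8, 15.8 and 25.01 CPM in KO replicates 1 to 4. In WT replicates 1 to 4 it stood at 16.7, 29.9, 32.8 and 27.5 CPM. WT replicate 1 lay with the lowest KO libraries, and the log2 fold change was -0.35 ± 0.20 SE (adjusted p = 0.552 by edgeR). Of its partners, Cenph and Cenpi had -0.0029 ± 0.12 and -0.0093 ± 0.22 (SE), each within its error of 0, and Cenpm had -0.14 ± 0.12 (SE). Cenpl and Cenpn, which pair with each other, were the highest of the role at 0.12 ± 0.11 and 0.10 ± 0.10 (SE), and the histone-fold genes Cenpt, Cenpw, Cenps and Cenpx had -0.08 ± 0.12, -0.14 ± 0.42, -0.07 ± 0.13 and 0.04 ± 0.12 (SE). Cenpo and Cenpp, of a further module, had -0.11 ± 0.13 and -0.15 ± 0.13, and Cenpv had -0.08 ± 0.14 (SE). The value of Cenpk was -0.22 without KO replicate 3, -0.23 without WT replicate 3 and -0.51 without WT replicate 1. That of Cenpb ranged from -0.30 (without KO replicate 4) to -0.12 (without KO replicate 2), and that of Cenpa from -0.030 (without KO replicate 1) to 0.066 (without KO replicate 3).

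Among the outer kinetochore genes, 0 of 6 passed, with 5 values above 0. Spc24, the NDC80 subunit with the highest level, was the exception, at 376, 461, 386 and 406 CPM in KO replicates 1 to 4 and at 449, 477, 425 and 467 CPM in WT replicates 1 to 4. Of its KO libraries 3 lay below all WT libraries, KO replicate 2 lay among them, and the log2 fold change was -0.16 ± 0.11 SE (adjusted p = 0.604 by edgeR). Nuf2, of the same complex, stood at 28.0, 37.8, 41.6 and 26.3 CPM in KO replicates 1 to 4 and at 25.7, 28.7, 30.8 and 25.9 CPM in WT replicates 1 to 4, with KO replicates 2 and 3 above all WT libraries and a log2 fold change of 0.27 ± 0.16 SE (adjusted p = 0.582 by edgeR). Cenpe, a kinesin motor that carries chromosomes along microtubules, stood at 60.0, 64.2, 57.4 and 38.8 CPM in KO replicates 1 to 4 and at 46.7, 41.7, 45.3 and 52.2 CPM in WT replicates 1 to 4. Of its KO libraries 3 lay above all WT libraries and KO replicate 4 below all of them, with a log2 fold change of 0.24 ± 0.15 SE (adjusted p = 0.574 by edgeR). The remaining subunits Ndc80 and Spc25 had 0.02 ± 0.11 and 0.02 ± 0.11 (SE), so the 4 subunits of the complex had values on both sides of 0. Cenpf, a large coiled-coil protein, was counted at 3.36 to 5.69 CPM in the KO libraries and 0.857 to 5.41 CPM in the WT ones, with an interval of -0.42 to 1.17. The value of Nuf2 also moved with single libraries and was 0.13 without KO replicate 3, 0.36 without KO replicate 4 and 0.093 without both KO replicate 3 and WT replicate 1. That of Cenpe was 0.37 without KO replicate 4.

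The spindle checkpoint genes gave 0 of 4 passing, with Bub1 below 0 and the rest above. Bub3, which brings its partners to the kinetochore, stood at 403, 379, 363 and 372 CPM in KO replicates 1 to 4 and at 341, 352, 359 and 389 CPM in WT replicates 1 to 4, and its groups overlapped, with a log2 fold change of 0.07 ± 0.10 SE (adjusted p = 0.832 by edgeR). Bub1b, which encodes the checkpoint protein BubR1, stood at 138, 136, 145 and 134 CPM in KO replicates 1 to 4 and at 127, 135, 115 and 118 CPM in WT replicates 1 to 4. Of its KO libraries 3 lay above all WT libraries and the fourth differed from WT replicate 2 by less than the spread of either group, with a log2 fold change of 0.16 ± 0.10 SE (adjusted p = 0.582 by edgeR). Bub1, the kinase related to it, stood at 15.7 to 21.7 CPM in the KO libraries and 14.6 to 26.1 CPM in the WT ones, with a log2 fold change of -0.19 ± 0.19 SE (adjusted p = 0.753 by edgeR). Mad2l1, which encodes the APC/C inhibitor MAD2, had 0.06 ± 0.12 (SE). With 1 library left out, Bub3 ranged from 0.044 (without KO replicate 1) to 0.11 (without WT replicate 4) and Bub1 from -0.32 (without WT replicate 1) to -0.064 (without WT replicate 3).

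Aurkb, the kinase of the chromosomal passenger complex, which corrects faulty attachments and acts in cytokinesis, was the gene of the set whose libraries did not overlap. It stood at 164, 152, 193 and 154 CPM in KO replicates 1 to 4 and at 144, 129.5, 139 and 139.8 CPM in WT replicates 1 to 4. The lowest KO library lay above the highest WT library, an order that held for 1 of 46 genes here (2.17%) and for 2.92% of all genes tested, a share near the background, while 0 of the 46 and 2.31% of all genes showed the opposite order. The log2 fold change was 0.27 ± 0.11 SE (adjusted p = 0.361 by edgeR), and it was 0.18 without KO replicate 3, the highest library. Its partners overlapped between the genotypes. Incenp, the scaffold of the complex, stood at 228, 220.5, 233 and 194 CPM in KO replicates 1 to 4 and at 192, 195, 221 and 194 CPM in WT replicates 1 to 4, with WT replicate 3 among the KO values, KO replicate 4 among the WT values and a log2 fold change of 0.13 ± 0.10 SE (adjusted p = 0.699 by edgeR). Birc5, the survivin gene, stood at 348, 337, 363 and 336 CPM in KO replicates 1 to 4 and at 331, 340.5, 319 and 369 CPM in WT replicates 1 to 4, with the groups mixed and a log2 fold change of 0.03 ± 0.10 SE (adjusted p = 0.959 by edgeR), and an interval of -0.19 to 0.24. Without both KO replicate 3 and WT replicate 1 the value of Incenp was 0.076 and that of Birc5 -0.011.

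The partners of the APC/C, which ends mitosis, did not pass. Ube2c stood at 1068, 986, 1135 and 1020 CPM in KO replicates 1 to 4 and at 948, 1108, 942 and 1178 CPM in WT replicates 1 to 4. The WT libraries spread more widely than the KO libraries and enclosed them, with a log2 fold change of 0.01 ± 0.11 SE (adjusted p = 0.987 by edgeR) and an interval of -0.22 to 0.25. Cdc20, the activator that the checkpoint restrains, stood at 213, 106, 206 and 159 CPM in KO replicates 1 to 4 and at 153, 142, 136 and 169.6 CPM in WT replicates 1 to 4. Its KO libraries held both the highest and the lowest of the 8 values, with a log2 fold change of 0.20 ± 0.16 SE (adjusted p = 0.694 by edgeR). This value was 0.077 without KO replicate 1, 0.095 without KO replicate 3 and 0.37 without KO replicate 2, and that of Ube2c ranged from -0.034 (without WT replicate 3) to 0.074 (without WT replicate 4). The gene Elovl1 lies on the opposite strand over the last 1000 bases of Cdc20, and Tnnc2 over those of Ube2c, and the sources used here do not give the strand setting of the counting.

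The spindle and midzone genes had the highest median log2 fold change of the 8 roles, 0.20, and 0 of 7 passed. Nusap1, which bundles microtubules around chromosomes, stood at 111, 100.4, 144 and 93.0 CPM in KO replicates 1 to 4 and at 72.4, 94.5, 90.7 and 96.5 CPM in WT replicates 1 to 4. KO replicate 3 was far above the rest and WT replicate 1 far below, and KO replicate 4 lay within the WT range. The log2 fold change was 0.34 ± 0.14 SE (adjusted p = 0.361 by edgeR), which became 0.19 without KO replicate 3 and 0.11 without both of these libraries. Kif20a, a kinesin that carries the passenger complex to the midzone, stood at 71.6, 62.1, 82.5 and 56.7 CPM in KO replicates 1 to 4 and at 53.6, 52.0, 55.1 and 58.8 CPM in WT replicates 1 to 4. Of its KO libraries 3 lay above all WT libraries, and the log2 fold change was 0.32 ± 0.13 SE (adjusted p = 0.369 by edgeR), or 0.21 without KO replicate 3. The gene Cdc23 lies on the opposite strand over its last 1000 bases. Tubb4b, a beta-tubulin of a family with near-identical copies whose counts may be shared, stood at 708, 629.9, 626 and 818 CPM in KO replicates 1 to 4 and at 602, 631, 571 and 706 CPM in WT replicates 1 to 4, with KO replicate 4 the highest and a log2 fold change of 0.15 ± 0.12 SE (adjusted p = 0.678 by edgeR), which was 0.060 without KO replicate 4. The midzone kinesin Kif23, the spindle motor Kif11 and the spindle factor Tpx2 had 0.24 ± 0.12, 0.17 ± 0.12 and 0.20 ± 0.17 (SE), and Cenpj, which acts at centrioles and not at the kinetochore, had -0.03 ± 0.18 (SE).

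Of the 3 genes of chromosome structure and proliferation, 0 passed. Top2a, the topoisomerase that untangles sister chromatids, stood at 479, 535, 677 and 446 CPM in KO replicates 1 to 4 and at 413, 501, 549 and 505 CPM in WT replicates 1 to 4. KO replicate 3 was the highest and WT replicate 1 the lowest of the 8, and the other 6 libraries overlapped, with a log2 fold change of 0.12 ± 0.13 SE (adjusted p = 0.784 by edgeR). Mki67, the proliferation marker Ki-67, stood at 189.8, 214, 291 and 193 CPM in KO replicates 1 to 4 and at 166, 248, 244 and 213 CPM in WT replicates 1 to 4. The same 2 libraries were the highest and the lowest, and the log2 fold change of 0.03 ± 0.15 SE (adjusted p = 0.968 by edgeR) turned to -0.14 without KO replicate 3 and to -0.08 without WT replicate 1. That of Top2a turned to -0.02 without KO replicate 3. Hmgb2, a chromatin protein, stood at 14.2 to 18.3 CPM in the KO libraries and 12.4 to 18.5 CPM in the WT ones, with a log2 fold change of 0.08 ± 0.18 SE (adjusted p = 0.918 by edgeR), which ranged with 1 library left out from -0.016 (without WT replicate 1) to 0.16 (without KO replicate 1).

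KO replicate 3 and WT replicate 1 were the extreme libraries for many of the genes. KO replicate 3 held the highest of the 8 values for 16 of 46 genes (34.8%), against 16.0% of all genes tested, and WT replicate 1 the lowest for 15 (32.6%), against 13.8%. Both counts came almost wholly from outside the inner centromere, with 14 of the first and 15 of the second. For the inner centromere genes KO replicate 3 was instead the lowest library for 6 of 15, where it was the lowest for 16.6% of all genes tested. In KO replicate 3 the median deviation from each gene's own mean over the 8 libraries was 0.19 on the log2 scale for the genes of the other roles and -0.18 for the inner centromere genes. In WT replicate 1 these medians were -0.20 and -0.05, and in the other 6 libraries they ran from -0.05 to 0.05 and from -0.06 to 0.12. Over all tested genes the medians of the 8 libraries stayed between 0.0029 and 0.0124. Markers moved with WT replicate 1: beside Cd4 and Cd8b1 it held 75.4 CPM of Rag1, where the other libraries held at most 37.3 CPM. The summed ILC2 markers stood at 635 to 657 CPM over KO and 495 to 628 CPM over WT libraries, with WT replicate 1 the lowest. The part of these markers in the mitotic values was not tested.

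**Figure D4:**
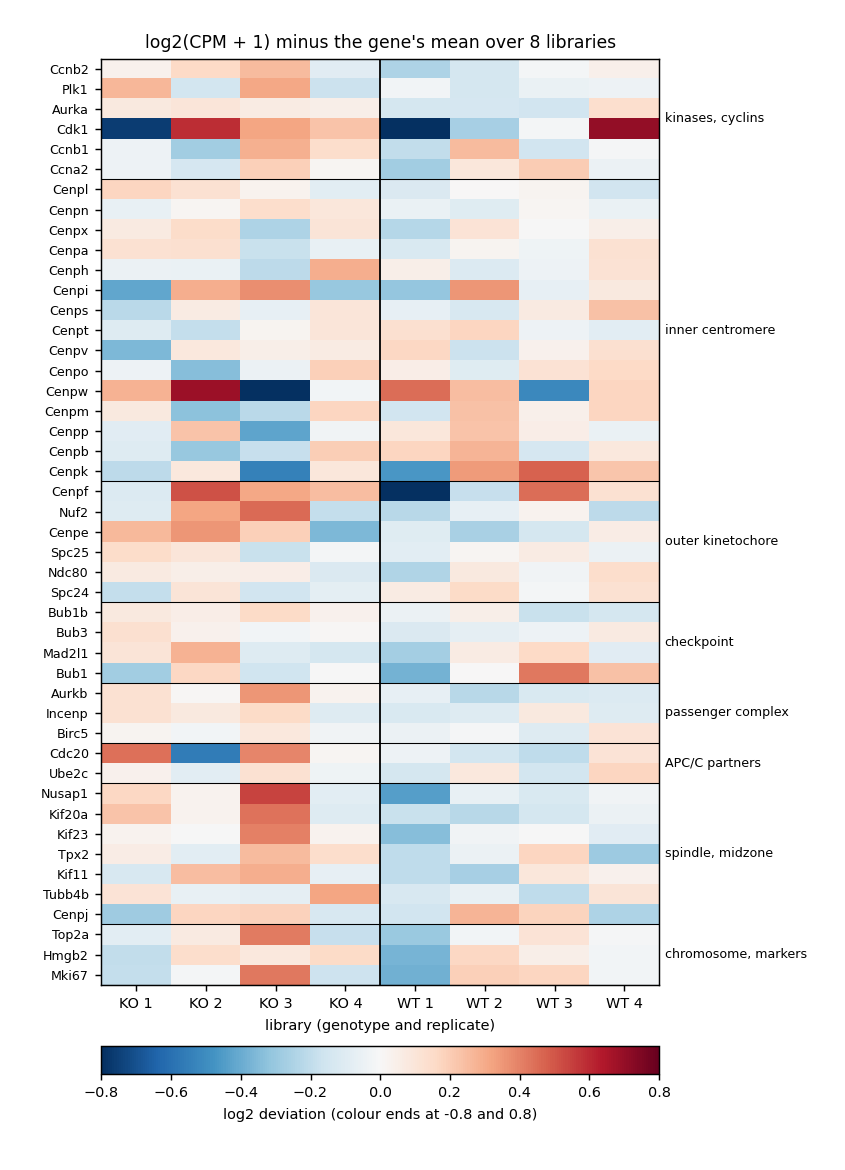
Heat map of log2(CPM + 1) minus the gene's mean over the 8 libraries, with the 46 tested genes in rows grouped by role and the libraries in columns, red above and blue below the mean. KO replicate 3 is red across the spindle, passenger complex and kinase genes and blue for many inner centromere genes, and WT replicate 1 is blue for most genes outside the inner centromere.

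Without WT replicate 1 the number of members above 0 fell from 32 to 24 of 46 and the median log2 fold change from 0.07 to 0.0061. Without KO replicate 3 they were 28 and 0.06. Without both, 19 of the 31 genes of the other roles lay above 0, with a median of 0.06, and 6 of the 15 inner centromere genes, with a median of -0.07. Leaving out each library in turn, the median of the inner centromere genes lay between -0.12 and -0.03 and that of the others between 0.09 and 0.15. The split was made after the values were seen, and these refits share most libraries with the full fit, so they do not test it.

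**Figure D5:**
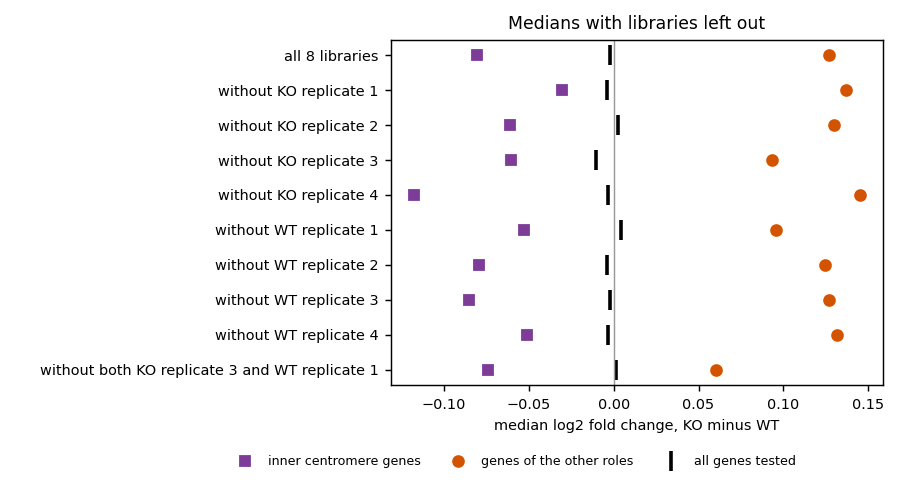
Median log2 fold change of KO minus WT for the inner centromere genes (squares), the genes of the other roles (circles) and all genes tested (bars), with all 8 libraries and with libraries left out. The circles stay right of the bars and the squares left of them in each setting. The circle is nearest to 0, at 0.06, when both KO replicate 3 and WT replicate 1 are left out. The split was made after the values with all 8 libraries were seen. The refits share most of those libraries, so they are no independent check of it.

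The rest of the cell cycle program was measured in the same libraries. Of 77 tested genes in a list of other mitosis genes 0 were called in either direction, 48 lay above 0 and the median was 0.08. At an unadjusted p under 0.05 it had 3 genes higher and 1 lower, where 5.12% and 5.71% of all genes were, and 3 genes had KO above WT and 1 KO below WT with no overlap, where 2.92% and 2.31% of all genes did. Sgo2a, a shugoshin that guards centromere cohesion, stood at 11.4 to 17.1 CPM in the KO libraries and 4.72 to 10.7 CPM in the WT ones, with no overlap and a log2 fold change of 0.86 ± 0.24 SE (adjusted p = 0.189 by edgeR). Iqgap3, a scaffold protein of proliferating cells, also showed no overlap and had 0.43 ± 0.14, and Ckap5, a microtubule polymerase, 0.49 ± 0.17 (SE). Itgb3bp, which encodes the inner centromere protein CENP-R, had the lowest value of the 4 named genes, at 5.80 to 14.6 CPM in the KO libraries and 13.9 to 24.4 CPM in the WT ones, a log2 fold change of -0.83 ± 0.27 SE (adjusted p = 0.242 by edgeR). Of 48 tested genes of DNA replication and S phase 0 were called and 31 lay above 0. Their median was 0.07, close to that of the mitosis genes. At an unadjusted p under 0.05 by edgeR 1 was higher and 1 lower, where 5.12% and 5.71% of all genes were. With no overlap, 1 had KO above WT and 1 KO below WT, where 2.92% and 2.31% of all genes did. The replication factor gene Rfc4 stood at 98.6 to 115 CPM in the KO libraries, below the 117 to 150.4 CPM of WT (log2 fold change -0.27 ± 0.11, SE), and Slbp, Pold2 and Rrm1 had 0.54 ± 0.21, -0.21 ± 0.13 and 0.18 ± 0.11 (SE).

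Of 18 tested genes of G1 cyclins, cell cycle inhibitors and quiescence 0 were called, 11 lay above 0 and the median was 0.06. At an unadjusted p under 0.05 by edgeR 2 were higher and 0 lower, where 5.12% and 5.71% of all genes were. These 2, the kinase genes Cdk6 and Cdk2, were at 0.26 ± 0.11 and 0.30 ± 0.14 on the log2 scale (SE). Their adjusted p was 0.410 and 0.451 by edgeR. The inhibitor gene Cdkn1a, which encodes p21, had 0.24 ± 0.12, and the antiproliferative gene Tob1 0.21 ± 0.15 (SE). Of the 14 regulators of the CHR and CCAAT elements 0 were called, 10 lay above 0 and the median was 0.16. Of the 14, 2 had KO above WT with no overlap, where 2.92% of all genes tested did. At an unadjusted p under 0.05 by edgeR 1 of the 14 was higher and 0 lower, against 5.12% and 5.71% of all genes. Foxm1, the transcription factor of G2 and mitosis, stood at 79.0, 77.6, 81.2 and 76.3 CPM in KO replicates 1 to 4 and at 72.0, 65.7, 70.0 and 69.3 CPM in WT replicates 1 to 4. Its groups did not overlap, and the log2 fold change was 0.18 ± 0.10 SE (adjusted p = 0.537 by edgeR). Mybl2, which joins MuvB to activate such genes, and the E2F partners Tfdp1 and Tfdp2 had 0.33 ± 0.20, 0.22 ± 0.11 and 0.61 ± 0.22 (SE), and Tfdp2 also showed no overlap, at 10.8 to 15.01 CPM in the KO libraries and 6.43 to 9.43 CPM in the WT ones.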

How the data were processed

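RNA of sorted thymic ILC2 was measured in 4 Il25 KO and 4 WT MARS-seq libraries. The raw UMI counts used for all tests are whole numbers deposited by the authors, per the file headers. The authors also deposited a normalized signal (the count over a constant per library), regularized log2 values and their own log2 fold change and p-value, per the file headers; only the last 2 are printed. The submitters' processing notes list mm10, HTSeq, STAR 2.5.2b, DESeq2, cutadapt and bcl2fastq without roles, and the sources used here give neither the annotation nor the strand setting.

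The test of KO against WT was that of edgeR 4.0.16 under R 4.3.3: filterByExpr (minimum count 10), TMM, and the quasi-likelihood test with group as the only term over 8 libraries, with Benjamini-Hochberg adjustment over 9016 genes and a threshold of 0.05. SE values come from the F statistic and intervals are 95%. Alternatives used DESeq2 1.42.0, limma 3.58.1, other scalings and filters, a replicate block and left-out libraries. The test was also run on simulated counts, drawn independently for each gene. These hold no deviation shared by the genes of a library, such as that of KO replicate 3, so they do not cover it. Intervals cover the spread between these libraries. All pairs of libraries differed beyond sampling noise, so none was treated as a copy, which does not show that they are separate animals. By chi-square per degree of freedom, KO replicate 2 differed less from WT replicate 3 (3.65) than from any KO library (6.14 to 7.09). KO replicate 4 differed less from WT replicates 1 and 4 (4.04 and 4.21) than from any KO library (6.19 to 7.90). Whether a batch lies behind this was not tested.

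Genes were chosen, grouped and listed with earlier results of these data known. Named members are, per role, the most abundant, the 2 with the lowest p, and Mki67, Top2a, Cdk1, Ccnb1, Aurkb and Cenpa; per list, the 4 with the lowest p. Other members are named to account for the whole set. Positions come from GENCODE M21 (GRCm38), where all 48 genes had 1 position and 11 were overlapped in their last 1000 bases. Beside Cenpb, Cdc20, Ube2c and Kif20a, these were Bub3 (by Fgfr2), Tubb4b (by Fam166a), Ccna2 (by Exosc9) and Cenpp (by Ippk). The rest were Cenpt (by Tsnaxip1), Cenpo (by Adcy3) and Cenpu (by Primpol). All but Cenpb were overlapped on the opposite strand, and without the strand setting their counts carry the same limit as Cdc20.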

Additional observations from a re-analysis of the deposited data

Results flagged for a closer look

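Of 66 groups of 4 libraries examined for a value far from the rest, 4 held one, where chance gives about 1 in 20. Among WT libraries, Aurka was at 109 CPM in replicate 4 and Incenp at 221 CPM in replicate 3, each above the other 3. Among KO libraries, the summed inner centromere genes were at 1445 CPM in replicate 3, below the other 3, and the summed outer kinetochore genes at 768 CPM in replicate 2, above the other 3.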

How the results depend on the processing

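Over the 18 alternative settings, which held 43 to 48 members each, 0 members were called in any, and the lowest adjusted p of a member was 0.163. Direction and side of the threshold held in 407 of the 431 values computed for the 24 named members. The other 24 values turned negative. They came from 8 members whose log2 fold changes with all libraries ran from 0.009 (Cenpa) to 0.12 (Top2a). With 1 library left out, Ccnb1 ranged from -0.029 to 0.17, Cdk1 ranged from -0.089 to 0.56, Cenpa ranged from -0.030 to 0.066, Birc5 ranged from -0.0038 to 0.067, Ube2c ranged from -0.034 to 0.074, Top2a ranged from -0.019 to 0.19, Mki67 ranged from -0.14 to 0.098 and Hmgb2 ranged from -0.016 to 0.16. When KO replicate 3 and WT replicate 1 were both omitted, Ccnb1, Cdk1, Birc5, Ube2c, Top2a, Mki67 and Hmgb2 were at -0.080, -0.18, -0.011, -0.070, -0.091, -0.24 and -0.031, and Cenpa was at -0.010 in the fit on log2 total count. The cause was not tested. In the same refits, 24 to 34 members lay above 0, 3 to 7 of the inner centromere and 21 to 29 of the others, the median of all members was 0.0061 to 0.0878, and 1 to 39 genes of the whole table were called, with 1 when WT replicate 2 was omitted, 4 for WT replicate 4 and 39 for KO replicate 2, against 19 with all libraries. DESeq2 called 49 genes and the fit with log2 total count 40. The fit with a replicate block called 60 genes, 32 higher and 28 lower, and 0 members. Same-numbered libraries deviated from their group means with correlations of -0.0055, -0.00029, 0.0899 and 0.139 for replicates 2, 3, 4 and 1. KO replicate 2 with WT replicate 3 had 0.245, the highest of all such pairs. These values cannot settle whether the numbers pair the samples, and the sources used here do not say. Library size alone moved the median of all genes from -0.0022 to 0.0276. Counts of a few UMIs per library limit Cdk1, Cenpf, Cenpw, Cenpq and Cenpu. The setting without both KO replicate 3 and WT replicate 1 and the split by inner centromere were chosen after seeing the data.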

Other observations

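The summed level of the 17 inner centromere genes in the KO libraries was 1645, 1653, 1445 and 1668 CPM (replicates 1 to 4), and in the WT libraries 1526, 1689, 1602 and 1707 CPM. The summed level of the 3 chromosome and proliferation genes ran the other way in KO replicate 3, where it was 986 CPM against 592 to 810.0 CPM in the other 7 libraries. Cdk1 was counted at 4.84 CPM while its partner Ccnb2 stood at 347 CPM and Top2a at 513 CPM, and GENCODE M21 lists no other gene over its last 1000 bases. Hmgb2, at 16.5 CPM, was also low beside them, with no overlapping gene there.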
